A study of Homo sapiens with 17 samples.

Results

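The small ribosomal subunit is built from a ribosomal RNA and a set of proteins, and 28 genes for these proteins are described here: RPSA, RPS2, RPS3, RPS3A, RPS4X, RPS6, RPS7, RPS9, RPS10, RPS12, RPS13, RPS14, RPS15, RPS15A, RPS16, RPS18, RPS19, RPS20, RPS21, RPS23, RPS24, RPS25, RPS26, RPS27, RPS28, RPS29, FAU and RACK1. They were chosen by name, as proteins of the mature 40S subunit without RPS27A, and the rule uses no measured value. They are 28 of 15661 genes with any count at 36 h and of 17023 at 72 h, and all 28 were among the 9017 and 10896 genes tested at these times. HEK293 cells, an established human embryonic kidney line, were electroporated with ribonucleoproteins of the sgIntron guide, which targets intron 12 of JAK2, and either Cas9 or dCas9. Cas9 cuts both DNA strands, and dCas9 is a catalytically inactive form that binds without cutting and served as the control. Lysates taken 36 or 72 h later were used for ribosome profiling, which counts the mRNA fragments protected by ribosomes (footprints), and for mRNA-seq. In each group every replicate was a pool of electroporations, 300 pmol of nuclease and 300 pmol of guide were given according to the labels, and there was no group without electroporation. At 36 h there were 3 Cas9 and 2 dCas9 mRNA libraries (replicates a, b, c and d, e) and 2 footprint libraries of each (a, c and d, e), and at 72 h there were 2 of each kind (mRNA a, b and footprints e, f). The guide was synthetic at 36 h and the aligner and annotation also differed between the times, so these differences cannot be told apart from time, and the times are set side by side without a test.

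The small subunit binds the mRNA, finds the start codon and holds the decoding centre, where codon and anticodon meet. Its proteins are made in large and nearly equal amounts, since each ribosome needs 1 copy of each, and surplus unassembled protein is usually degraded. Most ribosomal protein mRNAs begin with a run of pyrimidines, the 5′ terminal oligopyrimidine tract, through which mTOR signalling and the La-related protein LARP1 act on their translation as a group.

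That shared start was looked up first, because it is the sequence feature by which these mRNAs are known to be translated as a set. RefSeq start windows (GRCh38.p14) were found for 25 of the 28 genes, and RPS2, RPS15A and RPS20 had no entry. Of the 25, 23 (92%) had at least 5 consecutive C or T bases, in the direction of the gene, touching the 5 bases on either side of the annotated start, against 35.7% of all 35116 RefSeq starts. The median length of the run was 11 bases among the members and 4 over all starts. The lines below show 15 bases before and 15 from the annotated start, with the run in capitals, for the 3 genes whose mRNA differed most between Cas9 and dCas9 at 72 h and have an entry (RPS16, RPS21, RPS3A), the gene with the fewest footprints per mRNA (RPS27), the gene with the most at 36 h (RPS15) and another with many (FAU).
RPS16 (chr19:39435935-39435964, minus strand): gtggcccctagCTTTCCTTTTCCggttgcg
RPS21 (chr20:62387088-62387117, plus strand): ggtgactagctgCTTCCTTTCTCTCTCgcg
RPS3A (chr4:151099613-151099642, plus strand): cgactcccacttccgCCCTTTTggctctct
RPS27 (chr1:153990747-153990776, plus strand): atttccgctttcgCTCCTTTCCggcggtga
RPS15 (chr19:1438381-1438410, plus strand): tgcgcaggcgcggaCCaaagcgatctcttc
FAU (chr11:65122120-65122149, minus strand): cgccctcgCTTCTTCCTCTTTCTCgactcc
RPS15 has only 2 such bases at its annotated start, as does RPS29, and these are the 2 of the 25 genes without a run of 5. The RPS15 line also ends in a longer stretch of C and T bases. That stretch begins beyond the 5 bases searched, so it was not counted, and RPS15 entered the correlation below with a length of 2. The other genes shown carry a run of at least 5, RPS27 at the low and FAU at the high end of the ratio of footprints to mRNA included. Across the 25 members the length of the run and the log2 ratio of footprints to mRNA in dCas9 cells had a Pearson r of -0.05 at 36 h and -0.00 at 72 h, a description over genes that share libraries. The annotated start can lie a few bases from the start used in these cells.

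Total counts per library ranged from 25119873 to 42863812 for mRNA and from 689723 to 8865867 for footprints, and the lowest footprint depths were 957937 for Cas9 replicate a and 689723 for dCas9 replicate e at 36 h. The members took 4.2 to 4.86% of the mRNA counts and 2.43 to 2.6% of the footprint counts. Levels are given as CPM, counts scaled to the library's normalised total of the tested genes. Of the markers looked up for HEK293, VIM had 571 to 1020 CPM in mRNA, KRT18 48.7 to 58.7, NEFL 47.3 to 63.3 and NEFM 2.52 to 13.8. KRT8 had 3.78 to 8.25 CPM, PAX2 0 to 12 counts, and none of PTPRC, HBG1, CD3E and LYZ passed 22 counts in any library. JAK2, which holds the target site in an intron, had 131 to 472 mRNA counts and 0 to 23 footprint counts. Among the members, replicate mRNA libraries of a group differed by a median of 0.06 to 0.23 on the log2 scale. The 2 dCas9 mRNA libraries at 72 h differed most over all genes by their counts (chi-square 46.2 per degree of freedom, against 15.8 to 26.8 for the other mRNA pairs), and they differed by 0.64 for RPS16. Every pair of replicates differed by more than counting noise, so none was counted as 1 library.

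Although the subunit holds these proteins in equal number, the genes differed widely in level. Levels between genes are given as normalised CPM per 1000 counted codons, because a longer coding region collects more reads. In dCas9 cells at 36 h the highest mRNA level was that of RPS19, a head protein mutated in Diamond-Blackfan anaemia, at 20150 ± 2910 (SD, n = 2), followed by RPS4X at 19090 ± 2180 and RPS27, a zinc-binding protein, at 16250 ± 2230. The lowest were RPS26, which lines the exit of the mRNA channel, at 1274 ± 155, RPS9 at 1549 ± 287 and FAU, which encodes a fusion of a ubiquitin-like protein and eS30, at 3276 ± 347. The highest level was thus 15.8 times the lowest. For footprints RPS15, a protein of the subunit's head near the decoding site, was highest at 27830 ± 5160, ahead of RPS19 at 14620 ± 2000 and RACK1, the signalling scaffold on the head, at 11820 ± 1260. RPS9 at 1624 ± 57.7, RPS12 at 1818 ± 234 and RPS26 at 1923 ± 226 were the lowest in footprints. Of the 27 neighbouring pairs in these orders, the replicate ranges overlapped in 23 for mRNA and in 20 for footprints, so most neighbours could not be ordered.

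At 72 h the top of the order in dCas9 cells held many of these names. RPS19 was again highest in mRNA at 17150 ± 1820, with RPS27 at 16490 ± 2160 and RPS4X at 15750 ± 355, and RPS15 in footprints at 19430 ± 238, with RACK1 at 11610 ± 125 and RPS19 at 11100 ± 295. The lowest mRNA level had passed to RPS16, at 2409 ± 741, below FAU at 3215 ± 412 and RPS26 at 3298 ± 509. The lowest footprint levels were those of RPS12 at 1836 ± 88.7, RPS20 at 2828 ± 262 and RPS27 at 3377 ± 3.29. In Cas9 cells RPS16 was lowest in mRNA too, at 619 ± 8.95, where the highest, RPS19, stood at 20630 ± 1200. Replicate ranges overlapped in 20 of 27 neighbouring pairs for mRNA and in 8 for footprints. Between the times, dCas9 CPM of RPS16 mRNA at 72 h was 0.258 of that at 36 h, against 0.79 to 2.8 for the other 27 genes, while its footprints stood at 1.03 of the earlier value. RPS9 and RPS26 showed the highest ratios of the later to the earlier level, 2.8 and 2.62 in mRNA and 2.96 and 2.52 in footprints.

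**Figure D1:**
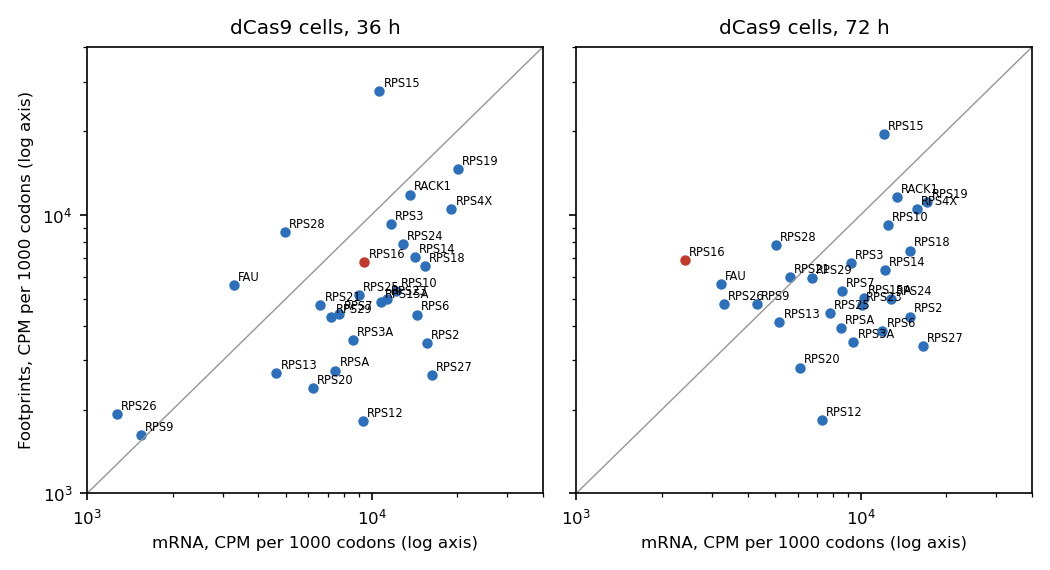
Footprint level against mRNA level of each of the 28 genes in dCas9 cells at 36 h and 72 h, both in CPM per 1000 counted codons on log axes; each point is the mean of 2 footprint and 2 mRNA libraries and the line marks equal values. Most points lie below the line, and RPS16 (red) moved from an mRNA level of 9424 at 36 h to 2409 at 72 h with footprints at 6752 and 6870.

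How many footprints a gene had for its mRNA was compared in dCas9 cells with the same test, edgeR's quasi-likelihood test at a false discovery rate of 0.1. Both libraries are scaled to the tested genes, so a value of 0 on the log2 scale is close to that of a middle gene. Of the 28 genes, 22 had fewer footprints than mRNA at 36 h and 4 had more, where 24.6% of all genes tested were lower and 23.6% higher. At 72 h 20 were lower and 5 higher, against 37.8% and 32.7% of all genes. The median log2 ratio of the members was -0.81 at 36 h and -0.66 at 72 h, against -0.01 and -0.06 for all genes tested. The 28 members together took 4.2 to 4.86% of the mRNA counts. Their mean mRNA levels in dCas9 cells at 36 h ran from 121 CPM (RPS26) to 4640 CPM (RPS4X). Over all genes the ratio also fell with the mean log2 mRNA CPM (Pearson r of -0.32 at 36 h and -0.27 at 72 h). The mRNA values in the ratio also enter that mean, so the correlation is between quantities that share data and can be negative for that reason alone. The part of abundance in the members' low ratio was not tested.

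RPS27 was at the low end at both times. In the dCas9 libraries d and e at 36 h it had 199 and 140 footprint CPM beside 939 and 1141 mRNA CPM, and at 72 h 220 and 219 footprint CPM (e, f) beside 1171 and 973 mRNA CPM (a, b), a log2 ratio of -2.55 ± 0.18 (SE) and -2.29 ± 0.11. No footprint value came near an mRNA value. RPS12, an eukaryote-specific protein of the beak, followed with -2.33 ± 0.19 and -1.99 ± 0.09. RPS2, which lines the mRNA entry channel, had -2.18 ± 0.12 and -1.79 ± 0.10, and RPS6, the substrate of S6 kinase, had -1.72 ± 0.10 and -1.64 ± 0.08.

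At the other end stood RPS15, RPS28, FAU and RPS26. RPS15 had 3023 and 3936 footprint CPM beside 1303 and 1361 mRNA CPM in the dCas9 lysates d and e at 36 h, and 2561 and 2606 beside 1831 and 1375 in the libraries at 72 h, so its footprint values lay above all its mRNA values. Its log2 ratio was 1.38 ± 0.12 at 36 h and 0.69 ± 0.11 at 72 h, and its most counted transcript was not the same at both times. FAU had 0.75 ± 0.13 and 0.81 ± 0.10, RPS28 0.79 ± 0.13 and 0.63 ± 0.10, and RPS26 0.57 ± 0.15 and 0.54 ± 0.11. RPS16 changed sides, with -0.49 ± 0.12 at 36 h and 1.51 ± 0.14 at 72 h, the highest value of the 28 at that time.

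At 36 h footprint and mRNA libraries share replicate letters, which were taken to mark the same lysate, and the ratio of CPM was formed within each letter. The labels do not name lysates, and the deviations of same-lettered libraries from their group means correlated by only 0.011 to 0.065. For RPS27 it was 0.148 and 0.239 in the Cas9 lysates a and c, and 0.212 and 0.123 in the dCas9 lysates d and e. RPS15 had 3.04 and 3.28 with Cas9 and 2.32 and 2.89 with dCas9. For RPS16 the ratio was 0.765 and 0.786 with Cas9 and 0.687 and 0.742 with dCas9. At 36 h none of these 3 genes passed the test of translational efficiency given further on. Across the 27 members with a known coding sequence the ratio was higher for GC-rich coding regions, with a Pearson r of 0.54 at 36 h and 0.58 at 72 h over genes of the same libraries, against 0.27 and 0.33 over all genes.

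**Figure D2:**
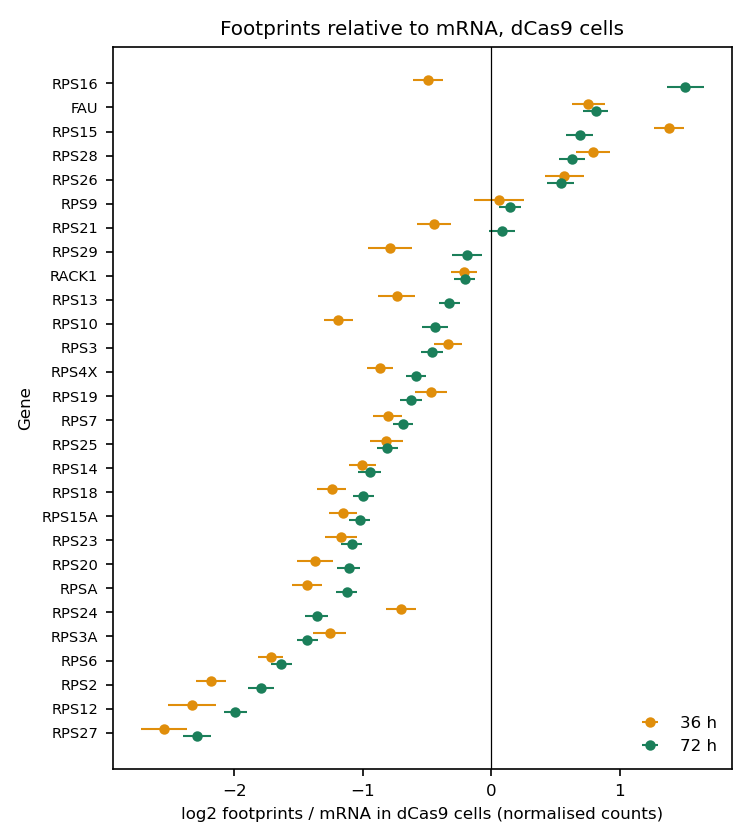
Log2 ratio of footprints to mRNA in dCas9 cells for each of the 28 genes at 36 h and 72 h, as fitted by edgeR with bars of 1 standard error (2 footprint and 2 mRNA libraries at each time). RPS27, RPS12, RPS2 and RPS6 lie at the low end at both times, FAU, RPS15, RPS28 and RPS26 above 0 at both, and RPS16 moved from -0.49 to 1.51.

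RPS16 showed the largest difference between Cas9 and dCas9. It encodes uS9, a head protein whose C-terminal tail reaches the tRNA in the P site, and lies on chromosome 19 at 39433137 to 39435949 (GRCh38, minus strand, 5 exons in the transcript counted). At 72 h its mRNA stood at 79.5 and 77.9 CPM with Cas9 (2872 and 2683 counts) and at 239 and 373 CPM with dCas9 (8701 and 16624 counts). Both Cas9 values lay below both dCas9 values, and the 2 dCas9 libraries themselves differed. The fitted log2 fold change was -1.96 ± 0.15 (SE), a level 3.89 times lower with Cas9 (adjusted p = 4.6e-06), and it was the lowest fold change of all 10896 genes tested. It passed the test in every alternative fit, between -1.66 without dCas9 mRNA replicate b and -2.23 without dCas9 mRNA replicate a. RPS16 footprints at 72 h were 797 and 843 CPM with Cas9 and 858 and 887 with dCas9, a log2 fold change of -0.09 ± 0.14 (adjusted p = 1). The Cas9 footprint values were the lower ones in all 4 pairs, by 0.03 to 0.15 on the log2 scale. The resulting translational efficiency, the fold change of footprints over that of mRNA, was higher with Cas9 by 1.87 ± 0.20 (adjusted p = 0.000864), the highest rank by p among all genes.

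At 36 h RPS16 did not pass. Its mRNA was at 1101, 1090 and 1060 CPM with Cas9 and at 1109 and 1266 with dCas9, a log2 fold change of -0.13 ± 0.10 (adjusted p = 1). Its footprints were 843 and 832 CPM with Cas9 and 762 and 940 with dCas9, a log2 fold change of -0.01 ± 0.12 (adjusted p = 0.981). Both dCas9 mRNA values of 72 h lay below all 5 values of 36 h. The 4 transcripts of RPS16 listed at 72 h, which share reads, followed the same order in mRNA: the transcript with 110 counted codons had 65.7 and 63.6 CPM with Cas9 and 192 and 307 with dCas9, and the one with 81 had 34.1 and 32.1 against 108 and 160. Whether the low RPS16 level at 72 h in both groups goes with the alignment, the annotation, the guide or the time cannot be told apart. Ribosomal protein genes have many near-identical processed pseudogenes, and how reads that fit several places were counted was not examined, so levels of all 28 genes carry that uncertainty.

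**Figure D3:**
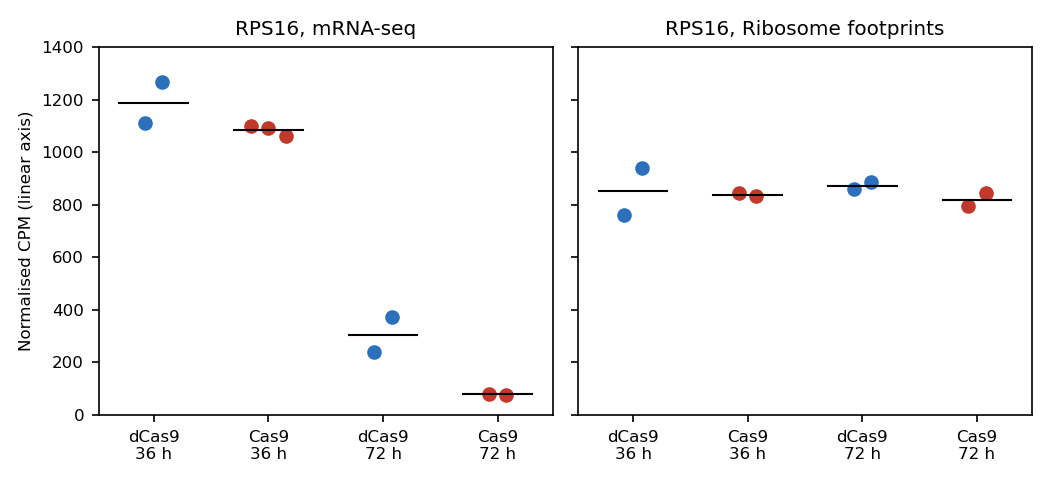
RPS16 in normalised CPM on a linear axis from 0, in all 17 libraries; each point is a library, and the line is the group mean (3 libraries for Cas9 mRNA at 36 h, 2 in the other groups). mRNA was between 1060 and 1266 at 36 h and between 77.9 and 373 at 72 h, while footprints stayed between 762 and 940.

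Apart from RPS16, the mRNAs of this set differed by less at 72 h, and how many were called on each side depended on single libraries. With edgeR 7 of 28 rose with Cas9 (RPS3A, RPS7, RPS25, RPS15A, RPS24, RPS18 and RPS6), where 0.431% of all genes rose, and 3 fell (RPS16, RPS21 and RPS2), where 5.21% did. The median log2 fold change of the members was 0.21, against 0.02 over all genes tested, and 20 of the 28 lay above 0. Both Cas9 libraries were above both dCas9 libraries for 17 members and below them for 5, against 23.8% and 25.8% of all genes. The level with Cas9 was 1.22 to 1.28 times that with dCas9 for the 7 that rose. With the mRNA libraries fitted alone, without the footprint libraries, only RPS16 passed (1 of 28). The other 9 calls were thus made only with both library types fitted together. Whether the estimated spread, the normalisation or the number of libraries made the difference was not tested. In the fit of mRNA alone 0.0275% of all genes rose and 2.66% fell. RPS16 was also the only call without Cas9 mRNA replicate a, where 0% of all genes rose and 1.01% fell. Without dCas9 mRNA replicate a 14 members rose and 2 fell, against 1.27% and 6.46% of all genes. Without dCas9 mRNA replicate b the balance turned, with 5 members up and 7 down, against 9.86% and 12.8% of all genes. RPS3A, RPS7 and RPS25 rose in both of these last fits, and RPS16 and RPS21 fell.

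The genes that rose are given in the order of their fold change, and a shared place in the subunit was not tested. RPS3A, a platform protein beside the mRNA exit, had 3018 and 2913 CPM with Cas9 and 2179 and 2440 with dCas9, a log2 fold change of 0.36 ± 0.08 (adjusted p = 0.0217). RPS7, which also binds MDM2, had 1966 and 1852 against 1547 and 1455, with 0.35 ± 0.08 (adjusted p = 0.0207). In both genes the groups did not overlap and the difference was larger than that between the replicates of either group. RPS25, known for a part in initiation on internal entry sites, had 1067 and 1000 against 817 and 833, with 0.33 ± 0.08 (adjusted p = 0.0338). RPS24, mutated in some patients with Diamond-Blackfan anaemia, had 1838 and 1797 against 1361 and 1560, with 0.31 ± 0.09 (adjusted p = 0.063). RPS15A had 1434 and 1395 against 1195 and 1081, with 0.31 ± 0.08 (adjusted p = 0.046).

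RPS18 and RPS6 completed the group that rose. RPS18, a head protein, had 2515 and 2363 CPM with Cas9 against 2068 and 1882 with dCas9, with 0.30 ± 0.08 (adjusted p = 0.0449). RPS6 had 3393 and 3275 against 2835 and 2643, with 0.28 ± 0.08 (adjusted p = 0.0575). In each of these 2 genes the lowest Cas9 value lay above the highest dCas9 value. The members just past the threshold on the other side were RPS23 (adjusted p = 0.103) and RPS20 (adjusted p = 0.105), both with all 4 pairs up.

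The genes that fell did so by different amounts. RPS21, a small eukaryote-specific protein, had 250 and 301 CPM with Cas9 and 358 and 364 with dCas9, a log2 fold change of -0.39 ± 0.10 (adjusted p = 0.0417). RPS2 had 3008 and 3453 against 4251 and 3924, with -0.34 ± 0.10 (adjusted p = 0.0649). The groups did not overlap in either gene, though the Cas9 replicates differed by 0.27 for RPS21. RPS28 had 197 and 216 against 274 and 228, with all 4 pairs lower and a log2 fold change of -0.28 ± 0.10 that did not pass (adjusted p = 0.158). RPS10, a head protein that is ubiquitylated on collided ribosomes, had 2224 and 2125 against 1979 and 1657 and did not pass either, with 0.26 ± 0.10 (adjusted p = 0.199). RPS10 overlaps a read-through transcript with NUDT3, and their reads cannot be told apart in shared exons.

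**Figure D4:**
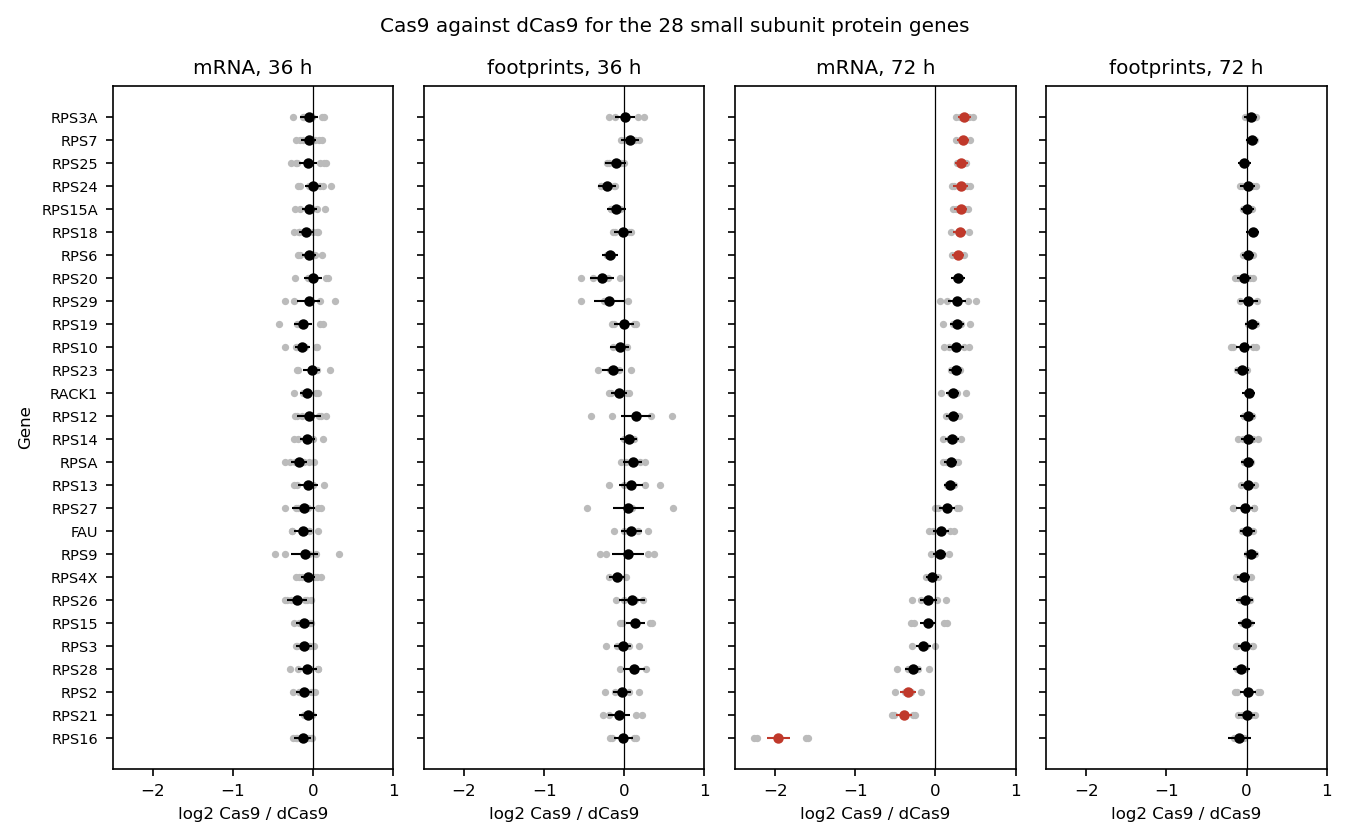
Log2 difference between Cas9 and dCas9 for the 28 genes, ordered by the mRNA difference at 72 h, in mRNA and footprints at each time; the larger points are edgeR estimates with bars of 1 standard error (red where the adjusted p is below 0.1) and the grey points are single pairs of libraries. Only the mRNA panel at 72 h holds red points, 7 above 0 and 3 below, with RPS16 at -1.96.

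Among the members the mRNA difference at 72 h followed the GC content of the coding region, which ran from 42.5% in RPS3A to 63% in RPS15. Over the 26 members with a known coding sequence other than RPS16, Pearson's r was -0.62 and Spearman's rho -0.66, and over all genes tested r was -0.36. The same relation at 36 h gave -0.61 and -0.74 over the same 26 genes, where no member passed the test. These are descriptions over genes that share their libraries. With a GC trend removed from each library, 13 of 27 members rose and 4 fell at 72 h with a median of 0.17, and RPS16 stood at -1.89. Calls over all genes rose with this step too, to 5.52% up and 12.5% down.

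**Figure D5:**
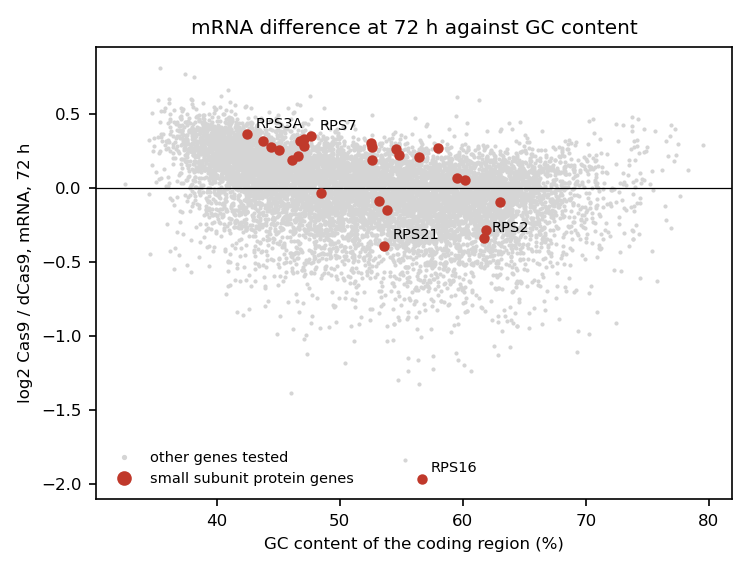
Log2 difference in mRNA between Cas9 and dCas9 at 72 h against GC content of the coding region; red points are the 27 small subunit protein genes with a coding sequence in the annotation and grey points are the other genes tested. Members of low GC content, such as RPS3A, lie above 0, members of high GC content, such as RPS2, more often below, and RPS16 lies at -1.96.

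Footprints at 72 h differed little. No member passed the test, and neither did any other gene (0%), with 396 of all genes and 0 of the 28 at an unadjusted p under 0.05, and DESeq2 called 0 as well. The median log2 fold change of the members was 0.01 and that of all genes 0.00, and the members ran from -0.09 (RPS16) to 0.08 (RPS18). RPS18 had 1026 and 1062 CPM with Cas9 against 992 and 988 with dCas9, a fold of 1.06 whose 4 pairs all pointed up (adjusted p = 1). The libraries of the groups did not overlap for 5 members higher with Cas9 and 3 lower, against 16% and 15.8% of all genes. The standard errors of the 28 genes were between 0.08 and 0.14, and the genes whose mRNA rose or fell had footprint values near 0: for RPS3A the log2 fold change of footprints was 0.05 ± 0.08 and for RPS7 0.07 ± 0.08, while RPS21 had 0.00 ± 0.10 and RPS2 0.02 ± 0.10.

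Translational efficiency at 72 h passed the test in 1 member. RPS16 was that member, as one of 76 genes (0.698%) that rose, while 2 genes (0.0184%) fell. Of the members 19 lay below 0, with a median of -0.19 against 0.00 for all genes. RPS25 was the lowest at -0.35 ± 0.12 (adjusted p = 0.257), and all 16 combinations of a footprint pair and an mRNA pair were below 0. RPS21 at 0.39 ± 0.14 and RPS2 at 0.36 ± 0.14 were next to RPS16 at the upper end (adjusted p = 0.317 and 0.342). Leaving out dCas9 mRNA replicate b moved the median of the members to -0.04 in translational efficiency and to 0.07 in mRNA, so the size of the median shift depended on that library.

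At 36 h neither mRNA nor footprints of the members passed the test. In mRNA 0% of all genes passed, with 26 of them and 0 of the 28 at an unadjusted p under 0.05, and DESeq2 called 0. All 28 members had a fold change below 0, with a median of -0.07 against 0.00 for all genes. That direction rested on dCas9 mRNA replicate e: without it 18 of the 28 lay above 0 and the median was 0.03. RPS26 was the lowest, at 108, 103 and 105 CPM with Cas9 and 111 and 131 with dCas9, a log2 fold change of -0.20 ± 0.13 with all 6 pairs lower. RPS24 and RPS20 had the values nearest 0, with 1401, 1537 and 1428 CPM of RPS24 with Cas9 against 1314 and 1596 with dCas9. The libraries did not overlap for 4 members lower with Cas9 and for 0 higher, against 8.48% and 8.43% of all genes. The 28 fold changes share the same 5 libraries, and dCas9 replicate e held the highest share of counts in the members, 4.83%, while d held 4.31% and the Cas9 libraries 4.2 to 4.5%.

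In footprints at 36 h 0% of all genes passed, with 863 at an unadjusted p under 0.05 and 0 of the 28, while DESeq2 called 46 genes and no member. The median of the members was -0.01 and that of all genes 0.02. RPS12 was the highest, at 167 and 280 CPM with Cas9 and 222 and 185 with dCas9, a log2 fold change of 0.15 ± 0.19, and the groups overlapped. RPS20, which like RPS10 is ubiquitylated on collided ribosomes, was the lowest at 171 and 216 against 248 and 224, with -0.28 ± 0.15 and all 4 pairs lower (adjusted p = 0.566). Groups did not overlap for 1 member higher with Cas9 and 5 lower, against 16.3% and 14% of all genes. RPS10 footprints were 727 and 762 CPM with Cas9 and 801 and 747 with dCas9, and its mRNA was 1678, 1662 and 1511 against 1620 and 1924, with log2 fold changes of -0.06 ± 0.11 and -0.13 ± 0.10. The counts behind some of these values were low, such as 87 for RPS27 and 115 for RPS12 in dCas9 replicate e. The standard error was 0.19 for both, but it was 0.12 for RPS16 and also for RPS15, which had the highest footprint level. RPS29 had the lowest mean footprint CPM of the 28, 130 with Cas9 and 154.6 with dCas9, and a standard error of 0.19. For RPS9 the standard error was 0.20.

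Translational efficiency at 36 h called no member and no gene (0%), with 568 of all genes and 0 of the 28 at an unadjusted p under 0.05, and DESeq2 called 1 gene and no member. The members ran from -0.28 ± 0.19 for RPS20 to 0.29 ± 0.21 for RPS26, with a median of 0.08 against 0.01 for all genes.

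Genes of the large subunit and of subunit assembly give a measure of how far these values extend. Of 47 proteins of the large subunit, all tested, 7 rose and 4 fell in mRNA at 72 h, with a median of 0.17 and values from -1.11 to 0.39. In translational efficiency 2 rose and 0 fell, with a median of -0.13. Of all genes tested, 0.431% rose and 5.21% fell in mRNA at 72 h, and 0.698% and 0.0184% in translational efficiency. In footprints at 72 h 0 of the 47 passed, with a median of 0.02. A list of 14 small subunit assembly factors held NOB1, the nuclease that trims the subunit's RNA, and BYSL and PNO1, which bind its platform. Of these 14 factors, 0 rose and 2 fell in mRNA at 72 h with a median of -0.09, beside the same shares of all genes. In footprints or translational efficiency 0 of them passed. In dCas9 cells the large subunit genes had a median log2 ratio of footprints to mRNA of -0.79 at 36 h and -0.80 at 72 h, and the assembly factors of -0.05 and 0.20. At 36 h 0 genes of either list passed in mRNA, footprints or translational efficiency, with medians of -0.08, -0.06 and 0.04 for the large subunit genes and of -0.05, 0.16 and 0.16 for the assembly factors.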

How the data were processed

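Ribosome footprints and mRNA of HEK293 cells were sequenced after electroporation with Cas9 or dCas9, and 17 libraries were analysed. The authors aligned reads with HISAT2 at 36 h (version 2.1.0 in the submitters' processing notes) and with tophat at 72 h, to an older GENCODE release at 36 h than at 72 h (GRCh38), and used fp-count for counting. The deposited values are raw counts of reads for each transcript, with its counted codons. The third Cas9 footprint replicate of 36 h (b) is not analysed here.

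Transcripts were matched to GENCODE release 44 genes. Unmatched transcripts held 3.68% of counts at 36 h and 4.18% at 72 h. The retired transcript of RPS27 was matched through the identifier pairing in the study's own tables. At each time a gene was represented by its most counted transcript. A gene was tested if its mean count reached 20 in both library types. Each time point was fitted in edgeR 4.0.16 (R 4.3.3) with a mean for each nuclease and library type, TMM normalization, the quasi-likelihood test and Benjamini-Hochberg adjustment over all genes at a false discovery rate of 0.1. CPM use TMM-scaled totals of tested genes, and values of single pairs a prior count of 2. Standard errors (SE) were calculated back from the test, as the absolute log2 fold change divided by the square root of the F statistic. The code was tested on simulated data. DESeq2 1.42.0 was an alternative. Others were median-ratio size factors, 2 other count filters, each library type alone, a replicate block, a GC correction, another transcript and leaving out each library. Promoter sequences came from RefSeq.

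The 28 members were all named. RPS16, RPS10, members past the threshold, and the highest and lowest of each comparison were given library by library. The members, gene lists and naming rule were chosen with earlier results of these data known. Large subunit genes came from the study's list. Replicates are separate pools of electroporations, and counts cover 689723 to 42863812 reads per library. Same-lettered libraries at 36 h, taken to be of the same lysate, had deviations from group means that correlated by 0.01 to 0.07.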

Additional observations from a re-analysis of the deposited data

How the results depend on the processing

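In mRNA at 72 h 10 members were called (7 up, 3 down), with 0.431% of all genes up and 5.21% down. With each library type fitted alone 1 was (RPS16, down), with 0.0275% and 2.66% of all genes, and with GC content removed 17 were (13 up, 4 down), with 5.52% and 12.5%. A replicate block and no count minimum each gave 13 (10 up, 3 down), with 0.459% and 4.43% of all genes under the block and 0.899% and 4.3% with no minimum. Leaving out a library, where a lone remaining library is assumed to vary like the other groups, gave 1 to 16 calls: 1 without Cas9 mRNA replicate a (0% of all genes up, 1.01% down), 16 without dCas9 mRNA replicate a (1.27%, 6.46%), 12 without dCas9 mRNA replicate b (5 up and 7 down, 9.86%, 12.8%), 5 without Cas9 mRNA replicate b (0.679%, 5.47%) and 4 without dCas9 footprint replicate e (0.111%, 3.6%) or f (0.103%, 3.71%). The median there ran from 0.071 without dCas9 mRNA replicate b to 0.28 without replicate a. For translational efficiency at 72 h, where 1 member rose beside 0.698% of all genes up and 0.0184% down, GC removal gave 5 calls (2 up, 3 down, with 4.74% and 0.976% of all genes) and leaving out a library 1 to 7, 7 without dCas9 mRNA replicate b (5 up, 2 down, with 5.42% and 4.32%), and the median ran from -0.263 to -0.045. The median of footprints at 72 h ran from -0.034 without Cas9 footprint replicate f to 0.021 without replicate e. The median ratio of footprints to mRNA was -0.588 at 36 h and -0.458 at 72 h with GC content removed, -0.562 at 72 h with edgeR's filterByExpr, and -0.732 to -0.535 at 72 h when a library was left out. At 36 h the RPS16 fold change ran from -0.178 to 0.134 in footprints (without dCas9 footprint replicate d and e) and from -0.047 to 0.266 in translational efficiency, never past the threshold. The cause was not tested in any of these.

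Same-lettered libraries at 36 h and footprints at 72 h correlated by under 0.1 in their deviations from the group means, and mRNA at 72 h by -0.14. The letters were not treated as pairs in the main tests, although the paper describes lysates that were split between the 2 methods. Such low correlations cannot show that the libraries were unpaired, because noise in each library also lowers them. A crossed pairing, chosen after seeing the data, gave 11 members called in mRNA at 72 h (8 up, 3 down), with 2.97% of all genes up and 7.42% down. With the replicate block RPS16 stood at -1.93 in mRNA (adjusted p = 0.000245) and 1.83 in translational efficiency (adjusted p = 0.00474) at 72 h, and the median ratio of footprints to mRNA at -0.606. With GENCODE release 44 identifiers alone, also chosen after seeing the data, 27 members were tested at 36 h and every count of member calls stayed within 1.5 times the main one. Footprints at 36 h included the shallowest libraries, and their replicates differed by more than counting noise (chi-square 5.19 and 6.2 per degree of freedom).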
